A study of Homo sapiens with 8 samples.

Results

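The miRNA genes MIR21, MIR301A and MIR454 lie in chromosome band 17q22-q23, a region amplified in many HER2-positive breast cancers. Their 4 mature products hsa-miR-21-5p, hsa-miR-21-3p, hsa-miR-301a-3p and hsa-miR-454-3p were chosen by this position and by name among 2006 human miRNAs on the array. All 4 were detected on at least 1 of 7 distinct arrays, as were 307 of the 2006 miRNAs, and 3 of the 4 were detected on all 7, as were 173 of the 2006.

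The series compared the miRNAs of the HER2-positive breast cancer lines BT474 and SKBR3 after 144 h with 6 μg/mL trastuzumab, an antibody against HER2, or with the PBS control. The labels give BT474 as estrogen receptor positive and SKBR3 as estrogen receptor negative, and list 2 biological replicates for each line and treatment. The file labelled SKBR3 PBS replicate 1 held the same summed signals as BT474 PBS replicate 1 for 2006 of 2006 miRNAs and was counted once, as the BT474 array, which left 1 SKBR3 PBS array. All arrays shared 1 slide and 1 scan, with PBS in slide row 2 and trastuzumab in row 1, BT474 in columns 1 and 2, and SKBR3 in columns 3 and 4, so treatment cannot be told apart from row, nor line from column.

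A miRNA is a short RNA that guides the silencing machinery to messenger RNAs, chiefly through its seed near the 5′ end, and each hairpin precursor gives a 5p and a 3p arm. The 5p arm of miR-21 is a well-studied oncogenic miRNA that represses PDCD4, among other targets, and its 3p arm is the less abundant product in most cells. The 3p arms of miR-301a and miR-454 belong to the miR-130/301 family, whose members share a seed.

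The mature sequences are shown because the seed decides which miRNAs can bind the same sites. They are RefSeq sequences on GRCh38.p14, in which 3 of the 4 miRNAs and 6 of 8 listed relatives had an entry under the array's name, as did 1687 of the 2006 miRNAs. Each runs 5′ to 3′ with the seed, bases 2 to 8, in capitals. The first pair shares the seed of miR-21-5p, and the next 5 share that of miR-301a-3p and miR-454-3p.
hsa-miR-21-5p: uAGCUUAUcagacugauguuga
hsa-miR-590-5p: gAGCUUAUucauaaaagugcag
hsa-miR-301a-3p: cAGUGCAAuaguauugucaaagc
hsa-miR-454-3p: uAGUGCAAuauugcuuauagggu
hsa-miR-130b-3p: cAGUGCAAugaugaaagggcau
hsa-miR-4295: cAGUGCAAuguuuuccuu
hsa-miR-3666: cAGUGCAAguguagaugccga
Without an entry under the array's name were hsa-miR-21-3p, hsa-miR-130a-3p and hsa-miR-301b. Over their 23 bases, miR-301a-3p and miR-454-3p were equal at 13 positions counted from the 5′ end, including all 7 of the seed. The seed of miR-21-5p was equal to theirs at 3 of 7 positions.

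On chromosome 17 of GRCh38.p14, the MIR21 hairpin lies at 59841266 to 59841337 on the plus strand, within the gene VMP1. The MIR301A hairpin lies at 59151136 to 59151221 and the MIR454 hairpin at 59137758 to 59137872, both on the minus strand and both within SKA2. MIR301A and MIR454 are 13.4 kb apart, MIR21 is 690 kb from MIR301A, and ERBB2, the gene of HER2, is 20133 kb from MIR21.

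The summed signal of a miRNA is the total over its probes as the scanner software gives it, before any scaling between arrays. This signal is not on the scale of the mean spot signals of single probes given below. Detection is the flag of the scanner software. Each of the 4 miRNAs had 2 probes of 15 spots each. The summed signal of all detected miRNAs ran from 446651 to 606660 on the BT474 arrays and from 246495 to 320578 on the SKBR3 arrays, and the number detected from 247 to 256 and from 201 to 218. Differences were therefore tested after quantile normalization over the 7 arrays, on the log2 scale with a floor at a signal of 10, with limma and an adjusted p under 0.05. They are given with values scaled to the 75th percentile where this changed a call or a direction.

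In the miR-21 hairpin, the 5p arm had signals of 27423 and 27378 in BT474 with PBS, 27379 and 27204 in BT474 with trastuzumab, 6735 in SKBR3 with PBS, and 10522 and 9228 in SKBR3 with trastuzumab. The 4 BT474 arrays were all higher than the 3 SKBR3 arrays, and the lines did not overlap. In BT474, 29 of 30 spots were saturated on PBS replicate 1 and 30 of 30 on the other 3 arrays, against 0 of 30 on each SKBR3 array. The BT474 signal is thus a lower bound, and with it the difference between the lines before scaling.

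The 3p arm of miR-21 had signals of 784 and 839 in BT474 with PBS, 679 and 808 in BT474 with trastuzumab, 42.0 in SKBR3 with PBS, and 66.2 and 53.4 in SKBR3 with trastuzumab. The lines did not overlap, while the treatments overlapped in BT474. All 30 spots lay well above background on each BT474 array, against 0 on the SKBR3 PBS array and 2 and 3 on the SKBR3 trastuzumab arrays. The miRNA was flagged as detected on all 7 arrays, but the SKBR3 PBS value is not well above background at any spot.

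For miR-301a-3p, the signals were 4875 and 6527 in BT474 with PBS, 5328 and 7130 in BT474 with trastuzumab, 54.1 in SKBR3 with PBS, and 72.7 and 50.6 in SKBR3 with trastuzumab. The BT474 arrays were all far above the SKBR3 arrays, and within each line the treatments overlapped. All 30 spots were well above background on each BT474 array, against 3 on the SKBR3 PBS array and 6 and 1 on the SKBR3 trastuzumab arrays.

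For miR-454-3p, the signals were 669 and 797 in BT474 with PBS and 867 and 1044 in BT474 with trastuzumab. In SKBR3 none of the 3 arrays had the detection flag for it, and the file then gives a signal of 0.1. Within BT474 both trastuzumab arrays were above both PBS arrays before scaling, and the lines did not overlap. The lowest signal of any detected miRNA on the SKBR3 arrays was 19.3, 26.8 and 28.3.

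**Figure D1:**
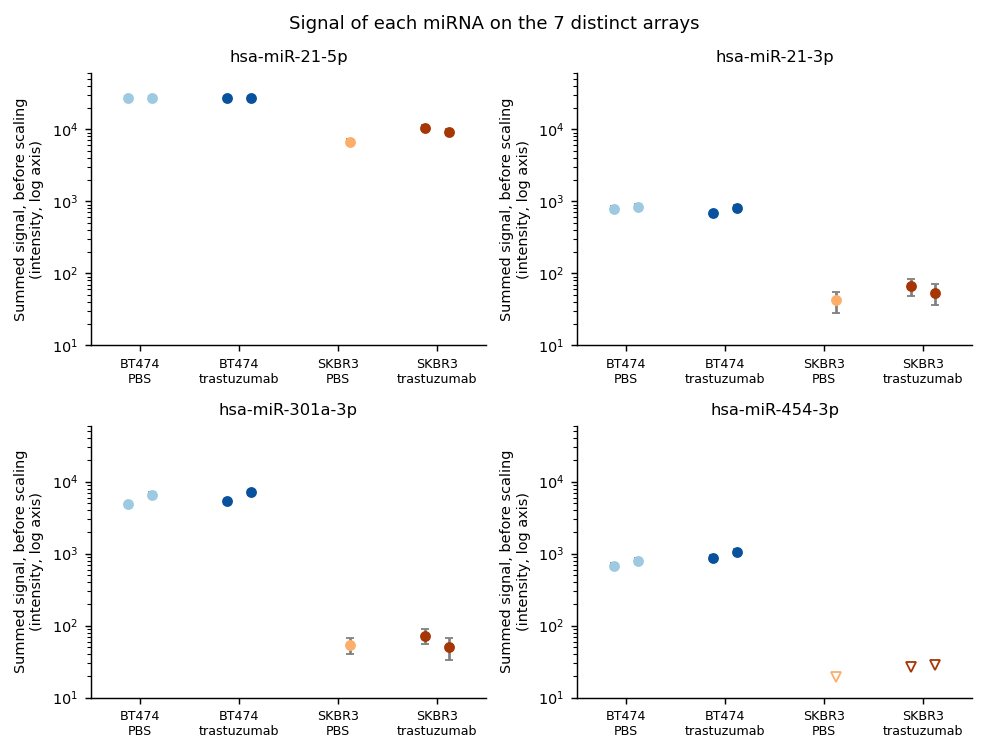
Summed signal of each miRNA on the 7 distinct arrays, before scaling, in intensity units on a log axis. Circles are arrays with the scanner software's error as bars (for miR-21-5p, 1939 at 27423 in BT474 and 564 at 6735 in SKBR3), light for PBS and dark for trastuzumab, and open triangles mark arrays without detection at the array's lowest detected signal. The lines are apart in every panel, and the treatments are not, apart from miR-454-3p in BT474 and miR-21-5p and miR-21-3p in SKBR3, where 1 PBS array is set against 2.

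Between the lines, averaged over the treatments, the 3 miRNAs detected in both were called higher in BT474. Of the 305 miRNAs tested 33.4% were, some of them against a line at the floor. For the saturated miR-21-5p the log2 difference was 0.82 (SE 0.04, adjusted p = 0.000298). At its probe 1 alone, scaled to the 75th percentile, it was 0.13, so 0.82 is not taken as a bound. Quantile normalization gave the saturated BT474 arrays a single value with no spread, and with scaling to the 75th percentile the difference was 0.84 (SE 0.15, adjusted p = 0.00909). There the BT474 spread came from scaling nearly equal saturated signals, so this SE and p do not measure the spread of miR-21-5p in BT474 either. For miR-21-3p the log2 difference was 2.75 (SE 0.09, adjusted p = 7.29e-05). It is set against SKBR3 values near background and was 2.58 at probe 2 alone. It is therefore not taken as a bound and is given with no fold. With PBS alone, where no SKBR3 spot of miR-21-3p was well above background, no size is given.

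The log2 difference was 5.43 for miR-301a-3p (SE 0.09, adjusted p = 1.6e-05). Its size rests on SKBR3 arrays with 1 to 6 of 30 spots well above background, and it is given with no fold. miR-454-3p was detected on 4 of 4 BT474 arrays and 0 of 3 SKBR3 arrays, which stand at the floor, so no p of that fit is given. Against the lowest signal of a detected miRNA on each SKBR3 array its log2 difference was 3.39 by quantile normalization and 4.27 by the 75th percentile, both above that of its probe 1 below, so neither is taken as a bound. With normexp background correction, tested over all 2006 miRNAs with no floor, the log2 differences of miR-21-3p, miR-301a-3p and miR-454-3p were 1.93, 4.54 and 2.42, all called, with an offset of 50 that shrinks differences of dim signals. The higher BT474 side held for all 4 miRNAs in all 4 BT474 arrays against all 3 SKBR3 arrays.

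With each treatment on its own, the summed signals gave the same direction. With PBS, where SKBR3 has 1 array, the log2 difference was 0.92 for miR-21-5p and 5.16 for miR-301a-3p. With trastuzumab it was 0.73 for miR-21-5p (adjusted p = 0.000974), 2.55 for miR-21-3p (adjusted p = 0.000262) and 5.69 for miR-301a-3p (adjusted p = 3.04e-05). As over both treatments, the sizes for miR-21-3p and miR-301a-3p are set against SKBR3 values near background. Those for miR-21-5p are set against saturated BT474 arrays at a single value, so its p measures no spread in BT474. At its probe 1 alone, scaled to the 75th percentile, SKBR3 was above BT474 with trastuzumab. miR-454-3p was undetected in SKBR3 with either treatment. With scaling to the 75th percentile, the difference of miR-21-5p with trastuzumab was 0.43 and was not called (adjusted p = 0.114).

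The separate values of the probes show where the arrays reach their limits. In miR-21-5p, the mean spot signal of probe 1 was 25823 in SKBR3 with PBS, against 64674 and 64603 in BT474 with PBS, close to the scanner's saturation value of 65502. Probe 2 gave 5856 in SKBR3 with PBS, against 64516 and 64475 in BT474. On the log2 scale, scaled to the 75th percentile, the lines differed by 0.13 at probe 1 and by 2.30 at probe 2. At probe 1 the sides were opposite in the treatments, with 15.98 and 15.68 in BT474 against 15.28 in SKBR3 with PBS, and 15.55 and 15.20 against 15.60 and 15.73 with trastuzumab. All spots of that probe were saturated in BT474, and 14 or 15 of 15 on an array at probe 2, so neither difference is a measured size.

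The separate probes of the other miRNAs all had BT474 above SKBR3. The difference was 2.84 and 2.58 for miR-21-3p at probes 1 and 2, and 5.40 and 4.97 for miR-301a-3p. On the SKBR3 arrays 0 to 2 of 15 spots were well above background at the probes of miR-21-3p, and 1 to 6 of 15 at probe 1 and 0 of 15 at probe 2 of miR-301a-3p, so that these sizes are set against values near background. For miR-454-3p it was 1.85 and 3.86, and its probe 1 was dim in BT474 too, with 1 to 7 of 15 spots well above background on an array, against 15 of 15 at probe 2, while in SKBR3 at most 1 of 15 was at either probe. These probe values were scaled to the 75th percentile and carry no test.

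**Figure D2:**
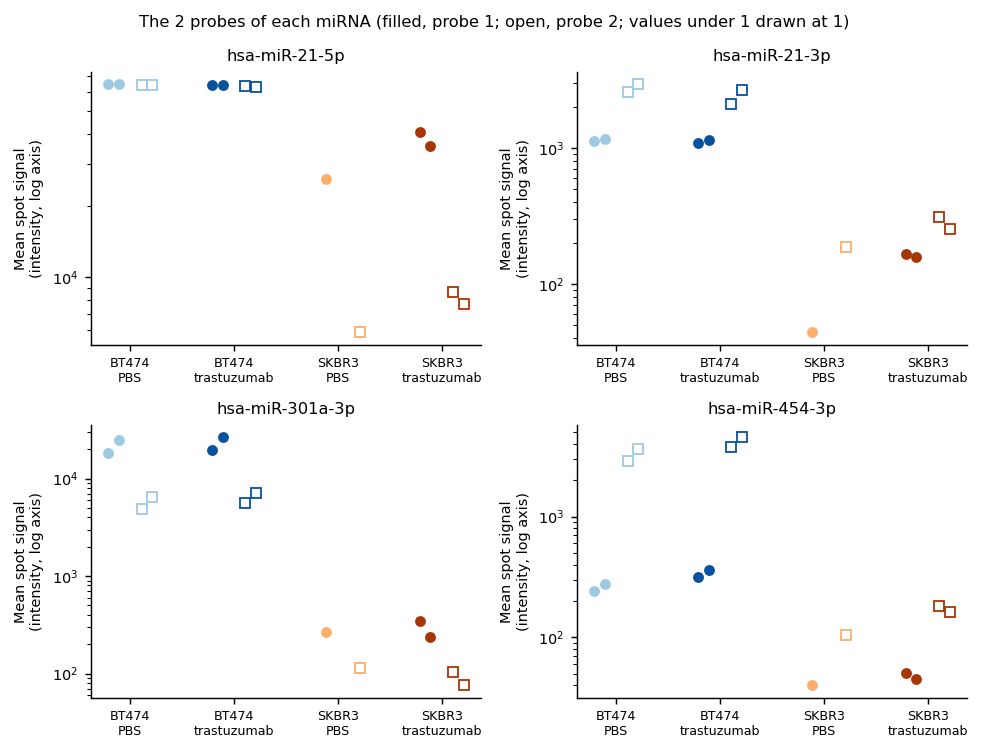
Mean background-subtracted spot signal of the 2 probes of each miRNA on the 7 distinct arrays, in intensity units on a log axis, with 15 spots per probe. These values are not on the scale of the summed signal. Filled circles are probe 1 and open squares probe 2, in light colours for PBS and dark for trastuzumab. Both probes of miR-21-5p sit at the top of the scale in BT474, and both are lower in SKBR3, at 25823 and 5856 with PBS.

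Trastuzumab against PBS in BT474 asks which miRNAs respond to the antibody in that line. Of the 305 miRNAs tested, 24.3% were called, 42 higher and 32 lower. Among the 4 miRNAs, 1 was called. That was miR-454-3p, higher with trastuzumab by 0.20 on the log2 scale (SE 0.04, 1.15-fold, adjusted p = 0.0479) in 2 of 2 arrays against 2. With scaling to the 75th percentile its difference was -0.069 (adjusted p = 0.415). Over all alternatives tried the call was kept in 3 and lost in 14, the replicate block among them (adjusted p = 0.115). In 3 the sign turned without a call, with that scaling and at each single probe, where nothing was tested.

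The difference of miR-21-3p in BT474 was -0.43 (SE 0.11, adjusted p = 0.0708), past the threshold with scaling to the 75th percentile, at -0.58 (adjusted p = 0.0233). It was also called without BT474 PBS replicate 2, at -0.58 (adjusted p = 0.0224), and with only miRNAs detected on every array (adjusted p = 0.0422), and it turned to 0.046 with the mean of spots (adjusted p = 1.00). After scaling, both trastuzumab arrays were below both PBS arrays, with means of 9.06 and 9.49 by quantile and 8.93 and 9.51 by the 75th percentile. miR-301a-3p differed by 0.012 (SE 0.11, adjusted p = 1.00), and by -0.32 with scaling to the 75th percentile (adjusted p = 0.0826). For miR-21-5p no change can be given, since both groups were saturated, and quantile normalization set all 4 BT474 arrays to 14.44.

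In SKBR3, 11.8% of the 305 miRNAs were called between trastuzumab and PBS by limma, and 0 of the 4. At an unadjusted p under 0.05 limma gave 1 of the 4, miR-301a-3p, against 22.6% of the 305. The comparison rests on 2 arrays against 1, which was taken to vary like the other groups, and for miR-301a-3p on values near background. miR-21-5p differed by 0.18 (SE 0.07, adjusted p = 0.225), and by 0.37 with scaling to the 75th percentile (adjusted p = 0.514). For miR-21-3p no change can be given, since no spot of the PBS array was well above background. For miR-301a-3p it was -0.52 (SE 0.14, adjusted p = 0.117), against -0.012 with that scaling (adjusted p = 1.00), and for miR-454-3p no change can be given, since it was undetected with both treatments.

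The scalings place the arrays differently. Over the 173 miRNAs detected on all arrays, scaling to the 75th percentile in place of quantile normalization moved the differences of single miRNAs by a median of -0.21 in the BT474 treatment comparison, 0.33 in that of SKBR3 and 0.25 between the lines. The median shift of the difference in response was -0.53. The treatment differences given for the 4 miRNAs were at most 0.52 in size by quantile normalization, where the scaling moved directions, and the differences between the lines of miR-21-3p and miR-301a-3p were far larger than these shifts. The split of the calls moved too. In BT474, 56.8% of calls were higher with trastuzumab by quantile normalization and 29.3% by the 75th percentile, in SKBR3 52.8% and 78.8%.

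**Figure D3:**
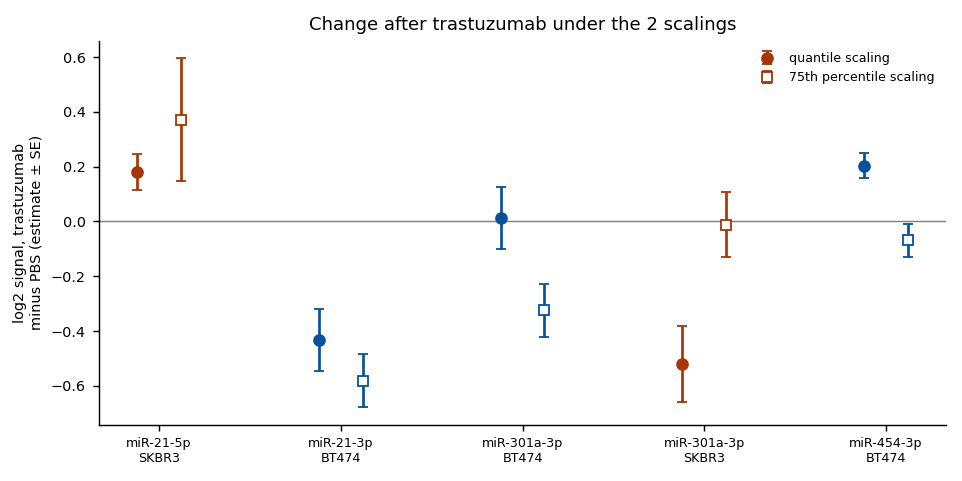
Trastuzumab minus PBS for each miRNA and line in which a change can be given, on the log2 scale with the standard error of the limma fit. Blue is BT474 and brown is SKBR3, filled circles are quantile normalization and open squares scaling to the 75th percentile. The sign turns between the scalings for miR-454-3p in BT474 (0.20 and -0.069) and miR-301a-3p in BT474 (0.012 and -0.32).

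The response of BT474 minus that of SKBR3 was called for 16.1% of the 305 miRNAs and for 0 of the 4 by quantile normalization. For miR-301a-3p it was 0.53 (SE 0.18, adjusted p = 0.154, under 0.05 before adjustment by limma, as for 30.2% of the 305), and -0.31 with scaling to the 75th percentile (adjusted p = 0.224). In SKBR3 at most 6 of 30 spots of miR-301a-3p were well above background. With scaling to the 75th percentile miR-21-3p was called, at -0.91. It had no spot well above background in SKBR3 with PBS, so that value is no measured change. No value is given for miR-21-5p, saturated in BT474, or for miR-454-3p, undetected in SKBR3.

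The sequences above place other miRNAs under the same seeds, and 8 relatives were listed, the 5p arms of MIR301A and MIR454 among them. Of the 8, hsa-miR-301a-5p, hsa-miR-454-5p, hsa-miR-301b, hsa-miR-4295 and hsa-miR-3666 were detected on 0 of the 7 arrays. Each of MIR301A and MIR454 was thus seen through its 3p arm alone, while both arms of MIR21 were detected. No further miRNA of the array had a matched entry with the seed of a member.

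In the miR-130/301 family, miR-130a-3p ran the other way. Its signals were 65.1 and 84.5 in BT474 with PBS, 193 and 273 in BT474 with trastuzumab, 1818 in SKBR3 with PBS, and 2293 and 2138 in SKBR3 with trastuzumab. SKBR3 was above BT474 on every array, and both BT474 trastuzumab arrays were above both PBS arrays. Between the lines the log2 difference was -5.20 (SE 0.12, adjusted p = 2.55e-05), against 5.43 for miR-301a-3p. It was -3.93 with normexp and -3.82 with the mean of spots, both called, and -3.65 with the copied array, which was not called (adjusted p = 0.0908). With trastuzumab it rose by 1.66 in BT474 (SE 0.15, adjusted p = 0.00606), and in SKBR3 the difference was -0.023 (adjusted p = 1.00). On the BT474 PBS arrays 4 and 9 of 30 spots were well above background. The BT474 value was 0.39 with normexp. The call was lost with the mean of spots (0.99, adjusted p = 0.139), the deposited values (0.73, adjusted p = 0.447) and the copied array (1.62, adjusted p = 0.864). It was also lost with a plain t-test, without the paper's random variance model, after Benjamini-Hochberg adjustment.

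The family member miR-130b-3p had signals of 355 and 445 in BT474 with PBS, 378 and 467 in BT474 with trastuzumab, 455 in SKBR3 with PBS, and 453 and 413 in SKBR3 with trastuzumab. Before scaling the lines overlapped. After scaling it was lower in BT474 than in SKBR3 by quantile normalization (-1.34, SE 0.03, adjusted p = 3.18e-05) and by the 75th percentile (-1.03, adjusted p = 0.000531). The median line differences of the 173 miRNAs detected on all arrays were -0.42 and -0.20. The line difference of miR-130b-3p was not called with the mean of spots (-0.38, adjusted p = 0.151) or with the copied array (-0.94, adjusted p = 0.102). In SKBR3, with 1 PBS array, the treatment difference was -0.69 (SE 0.05, adjusted p = 0.00628), and in BT474 it was -0.13 (adjusted p = 0.108). The SKBR3 call was lost with scaling to the 75th percentile (-0.25), the deposited values (-0.52) and limma at the methods' thresholds of fold and unadjusted p. The direction turned with the mean of spots (0.097) and the copied array (0.14). The difference stayed at -0.69, without a call, with the arrays of the line alone and a plain t-test, which lacks the paper's random variance model. With 1 PBS array, both took the spread of this miRNA from the trastuzumab replicates only, so these lost calls decide nothing.

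The seed relative of miR-21-5p, miR-590-5p, had signals of 290 and 413 in BT474 with PBS, 287 and 390 in BT474 with trastuzumab, 272 in SKBR3 with PBS, and 319 and 173 in SKBR3 with trastuzumab. The lines overlapped before scaling. Its difference between them was -0.74 (SE 0.22, adjusted p = 0.0447), and -0.48 with scaling to the 75th percentile, which was not called (adjusted p = 0.0703). The medians over the 173 miRNAs detected on all arrays were -0.42 and -0.20. The call was also lost without any single BT474 array (adjusted p = 0.104 to 0.137), with the replicate block (0.0747) and with the copied array (0.293), and the difference turned to 0.11 with the mean of spots. It was called for neither treatment comparison (adjusted p = 0.513 in BT474 and 0.267 in SKBR3).

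**Figure D4:**
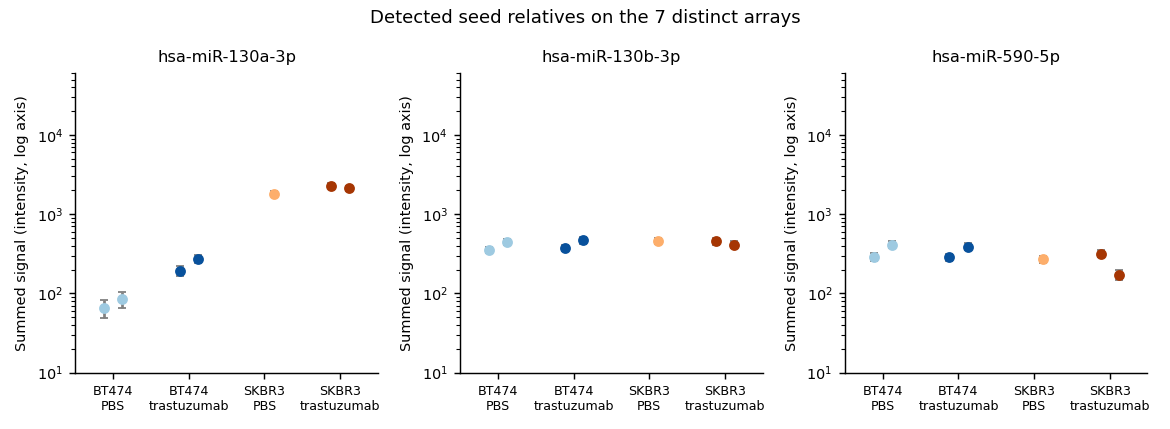
Summed signal of the 3 detected seed relatives on the 7 distinct arrays, before scaling, in intensity units on a log axis, with the scanner software's error as bars. Light colours are PBS and dark colours trastuzumab, blue for BT474 and brown for SKBR3. miR-130a-3p runs from 65.1 in BT474 to 2293 in SKBR3, and the other relatives lie close together in the lines.

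Along chromosome 17, miRNAs were placed by an entry under the array's name, which 1687 of the 2006 had. To these miR-21-3p was added at MIR21, and the other miRNAs without an entry were not placed. Of the placed miRNAs, 18 lie within 5 Mb of MIR21, and all 14 besides the 4 miRNAs were undetected on the 7 arrays. Those 14 include both arms of miR-142, a leukocyte miRNA. On the rest of the chromosome 18 of 92 placed miRNAs were detected, of which 6 were called higher and 6 lower in BT474 and 6 were not called. The undetected miR-4315 has 2 genes and was counted both in the window and outside it. Among the called, miR-193a-5p and miR-4728-5p were each detected in 1 line and set against the floor. The 12 called kept their sides with scaling to the 75th percentile. Of the 18 detected, the 11 that were detected on all arrays had differences from -1.96 to 3.31.

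Of the detected miRNAs placed elsewhere on chromosome 17, those called higher in BT474 were miR-195-5p, miR-497-5p, miR-324-5p, miR-193a-5p, miR-193a-3p and miR-196a-5p. The last of these also has a gene on another chromosome. Lower in BT474 were miR-22-3p, miR-423-5p, miR-4728-5p, miR-6165, miR-4739 and miR-1268b. Not called were miR-324-3p, miR-744-5p, miR-744-3p, miR-4725-5p, miR-4728-3p and miR-4730. Like miR-454-3p, miR-193a-5p was detected on all 4 BT474 arrays and on 0 of 3 SKBR3 arrays. DNA copy number was not analysed here.

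**Figure D5:**
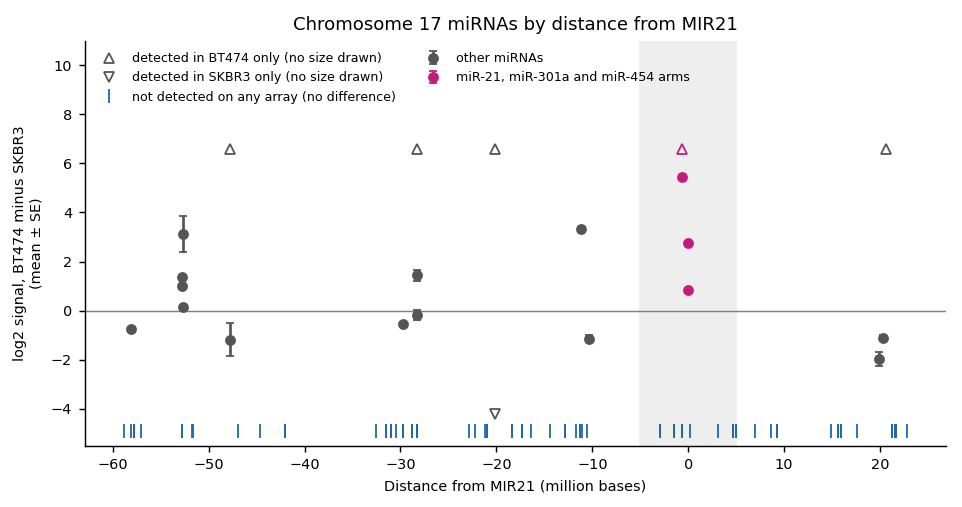
Log2 difference, BT474 minus SKBR3 with its standard error, of chromosome 17 miRNAs against the distance of their gene from MIR21 in Mb, with the 5 Mb on either side shaded. Circles were detected in both lines, triangles in 1 line only with no size drawn, and ticks mark miRNAs undetected on all arrays. Only placed miRNAs are drawn. Among these, the detected miRNAs in the shaded window are the arms of miR-21, miR-301a and miR-454, all on the BT474 side. Elsewhere the differences lie on both sides of 0.

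For each of the 4 miRNAs, the 3 miRNAs with the most alike pattern over the 7 arrays were found among those detected on all arrays, by Pearson correlation of normalized log2 signals. With the lines so far apart, these correlations mostly restate the split between lines, and they carry no size. For miR-21-5p they were miR-193b-3p (r = 0.989), let-7i-5p (0.988) and let-7a-5p (0.987), and for miR-21-3p miR-342-3p (0.995), let-7a-5p (0.991) and miR-196a-5p (0.990). For miR-301a-3p they were miR-365a-3p (0.998), miR-151a-5p (0.998) and let-7a-5p (0.998), and for miR-454-3p let-7a-5p (1.00), miR-365a-3p (0.998) and miR-181b-5p (0.998). The line difference of let-7a-5p was 0.21, against 5.43 for miR-301a-3p.

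The lines were set against marker miRNAs. Of 7 epithelial markers, hsa-miR-200c-3p and hsa-miR-141-3p were detected on all 7 arrays and the other 5 only in BT474, and the summed signal of the list before scaling ran from 32163 to 43555 in BT474 and from 12720 to 17623 in SKBR3. Before scaling hsa-miR-200c-3p was higher on every BT474 array, at 6425 to 9096 against 4827 to 5503 in SKBR3. After quantile normalization its log2 difference was -0.59 (adjusted p = 0.000695), beside a median of -0.42 over the 173 miRNAs detected on all arrays. By the same normalization hsa-miR-141-3p differed by 0.032 (adjusted p = 0.720). Of 3 markers of estrogen receptor positive breast cells, miR-342-3p was detected on all arrays, at 1965 to 2516 in BT474 and 129 to 162 in SKBR3, miR-342-5p in BT474 only and miR-190b on none. Among 7 blood and leukocyte markers only miR-451a was detected, on 1 array at 57.3, and 0 of 4 mesenchymal markers and 0 of 1 liver marker were. Endothelial miR-126-3p was detected on 3 BT474 arrays at up to 88.5 and muscle miR-1 on 4 at up to 382, with miR-133a and miR-206 on none. The list left out miR-133b and miR-499a-5p, picked here with their results known, which were detected in BT474 only. The arms of miR-4728, in an ERBB2 intron, were each detected in 1 line, the 3p arm in BT474 with PBS only (166 and 67.7) and the 5p arm on all 3 SKBR3 arrays (44.7 to 97.9). The part of cell state in the differences between the lines was not tested.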

How the data were processed

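Total RNA labelled with Cy3 was hybridized to one-colour Agilent arrays of human miRNAs, with 30 spots for each of 2006 miRNAs. The authors deposited the intensity of each spot and the summed signal and detection flag of each miRNA, as Agilent Feature Extraction 11.5.1.1 wrote them, with no scaling between arrays. The authors also deposited quantile normalized log2 values per probe, with medians of 5.34 or 5.35 in BT474 and 5.28 in SKBR3. They had been normalized within each line and were used only as an alternative for treatment.

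Summed signals of the 7 distinct arrays were quantile normalized and converted to log2 after raising lower values to a floor of 10. The 4 groups were fitted together with limma 3.58.1 in R 4.3.3, and p-values were adjusted with the Benjamini-Hochberg method over 305 miRNAs, those at the floor on every array being left out. A miRNA was called at an adjusted p under 0.05. A miRNA undetected, saturated or with no spot well above background throughout a group was given without a size, or with one not taken as a bound. For an undetected miRNA, the mean of the brighter group was set against a mean for the dim group. That mean took the higher of the dim group's own value and each array's lowest detected signal. Named were the 4 miRNAs, their seed relatives and other arms, the detected miRNAs placed on chromosome 17, the 3 most correlated miRNAs of each of the 4, and marker lists. The members and lists were chosen with earlier results of these data known. The script was tested on simulated data. The labels call the replicates biological without naming separate cultures, so p-values measure only the spread between these arrays, which may be technical, and the number of arrays limits the precision.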

Additional observations from a re-analysis of the deposited data

Results flagged for a closer look

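The response to trastuzumab differed between the lines for 2 listed relatives of miR-301a-3p and miR-454-3p, by limma's test of the response of BT474 minus that of SKBR3. For miR-130a-3p the difference was 1.68 (SE 0.23, adjusted p = 0.0222), with 1.66 in BT474 and -0.023 in SKBR3. It was not called with normexp background correction, the mean of spots, the deposited values, or without BT474 PBS replicate 1 (adjusted p = 0.0584), SKBR3 trastuzumab replicate 1 (0.0719) or SKBR3 trastuzumab replicate 2 (0.0803), and it turned to -1.42 with the copied array kept under its SKBR3 label (adjusted p = 0.794).

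For miR-130b-3p the difference was 0.56 (SE 0.06, adjusted p = 0.0153), with -0.13 in BT474 and -0.69 in SKBR3. It turned to -0.12 with scaling to the 75th percentile (adjusted p = 0.540) and to -0.26 with the copied array (adjusted p = 0.854), and it was not called with normexp, the mean of spots, the deposited values or the replicate block. The causes were not tested.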

How the results depend on the processing

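The call of miR-21-5p, miR-21-3p, miR-301a-3p and miR-454-3p as higher in BT474 was kept under every alternative with a test except the copied array, for miR-454-3p mostly against the floor. With that array under its SKBR3 label, the log2 differences were 0.60 (adjusted p = 0.0960), 1.96 (0.0826), 4.14 (0.0688) and 4.54 (0.0688), since the label then puts a BT474 signal among SKBR3 arrays. The calls for BT474 treatment, SKBR3 treatment, the lines and the difference in response then fell to 6, 6, 6 and 5, from 74, 36, 209 and 49. With that array the SKBR3 treatment difference of miR-21-5p turned to -0.29 and the difference in response of miR-21-3p to 1.13, and for the relatives the SKBR3 difference turned to 3.04 (miR-130a-3p) and 0.14 (miR-130b-3p), and the difference in response to -1.42, -0.26 and -0.017 (miR-590-5p).

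The call of miR-454-3p in BT474 (0.20) was kept in 3 alternatives and lost in 14, and in 3 the sign turned without a call, with adjusted p from 0.0274 to 1.00. The value was 0.16 with normexp, 0.54 with the mean of spots, 0.21 with the deposited values and 0.19 with the copied array. It was 0.20 with the line alone, a plain t-test at either threshold and limma at the methods' thresholds of fold and unadjusted p. Without each replicate it ran from 0.16 to 0.23, and the call was lost without either BT474 PBS replicate (adjusted p = 0.0954 and 0.0549) or any SKBR3 array (0.0838, 0.0711 and 0.0668). It was -0.069 with scaling to the 75th percentile, -0.077 at probe 1 and -0.11 at probe 2.

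With scaling to the 75th percentile, miR-21-3p was -0.58 in BT474 and 0.32 in SKBR3, with -0.91 for the difference in response. Of these, -0.58 and -0.91 were called. By the same scaling miR-301a-3p was -0.32 in BT474 with -0.31 for the difference in response. The SKBR3 difference of miR-130a-3p was 0.11, and the difference in response was -0.12 for miR-130b-3p and -0.11 for miR-590-5p. Between the lines 48.8% of calls were higher in BT474 by quantile normalization and 57.1% by this scaling, and for the difference in response 61.2% and 31.4% were above 0.

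With only miRNAs detected on every array, miR-21-3p in BT474 was called (-0.43, adjusted p = 0.0422), over fewer miRNAs, and 23 differences in response were. With the mean of spots, miR-21-3p was 0.046 in BT474 and 1.07 in SKBR3, miR-301a-3p 0.11 in SKBR3, miR-130a-3p 0.42 in SKBR3, miR-130b-3p 0.27 in BT474 and 0.10 in SKBR3, and miR-590-5p 0.11 in BT474, 0.10 in SKBR3 and 0.11 between the lines, and 27, 117 and 115 were called for BT474 treatment, SKBR3 treatment and the difference in response. With normexp, miR-21-3p in SKBR3 was 0.23, and 65 were called in SKBR3 and 391 between the lines. With the deposited values, miR-21-3p in SKBR3 was 0.99 and miR-301a-3p in BT474 -0.079, and limma called 0, 0 and 0 for the treatments and the difference in response, against 194, 167 and 175 at an unadjusted p under 0.05.

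At single probes, without a test, miR-21-5p was 0.39 in SKBR3 at probe 1 and 0.13 and 2.30 between the lines at probes 1 and 2. miR-21-3p was -0.65 in BT474 at probe 2, 1.70 and 0.40 in SKBR3, 2.58 between the lines at probe 2, and -2.18 and -1.06 for the difference in response. miR-301a-3p was -0.34 and -0.28 in BT474, -0.086 in SKBR3 at probe 1, 4.97 between the lines at probe 2, and -0.26 and 0.27 for the difference in response. miR-454-3p was 1.85 and 3.86 between the lines.

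The replicate number as a block gave 49, 18, 196 and 22 calls for BT474 treatment, SKBR3 treatment, the lines and the difference in response. Replicates with the same number in BT474 deviated together (r = 0.297 over 173 miRNAs), and they also share a slide column, as do the PBS and trastuzumab replicate 2 arrays of SKBR3, so replicate and column cannot be told apart. There are fewer than 3 pairs. With the block miR-454-3p in BT474 was 0.20 (adjusted p = 0.115), the SKBR3 difference of miR-130a-3p was 0.076, and no other call of the 4 miRNAs changed.

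Without each array in turn, 44 to 80 were called in BT474, 16 to 42 in SKBR3 and 29 to 74 for the difference in response. The BT474 count was 49 and 44 without SKBR3 trastuzumab replicates 1 and 2, the SKBR3 count 16 and 21 without BT474 PBS replicates 1 and 2 and 20 without SKBR3 trastuzumab replicate 1, and the difference in response 74 without BT474 trastuzumab replicate 2 and 29 without SKBR3 trastuzumab replicate 1. miR-21-3p ran from -0.58 to -0.29 in BT474 and from -0.54 to -0.25 for the difference in response, called in both without BT474 PBS replicate 2 (adjusted p = 0.0224 and 0.0411), and miR-301a-3p in BT474 from -0.055, without BT474 PBS replicate 1, to 0.085. With the arrays of the line alone, 41 and 15 were called in BT474 and SKBR3. The methods' t-test gave 26 and 11 at the methods' thresholds and 3 and 0 after Benjamini-Hochberg, with 22 in SKBR3 at an unadjusted p under 0.05, where limma gave 74 and 36 and limma at the methods' thresholds 39 in BT474.

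Not run were the deposited values between the lines, which had been normalized within each line, and values without SKBR3 PBS replicate 2 for the SKBR3 treatment, the lines and the difference in response. miR-454-3p had no value among miRNAs detected on every array, and no alternative is given where a miRNA was saturated or undetected in both groups. Signal over background limited miR-21-3p and miR-301a-3p in SKBR3, where at most 6 of 30 spots were well above it and none of miR-21-3p with PBS, so its SKBR3 and difference in response values are no measured changes, and saturation limited miR-21-5p in BT474. Other causes of these changes were not tested.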
